A study of Capra hircus with 2 samples.

Results

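The small RNAs miR-143 and miR-145 were followed in the mammary gland of dairy goats at peak and late lactation. The deposited tags, which are distinct small RNA sequences with a read count each, carry no names. The miR-143 group was taken as every tag that contained nt 2 to 17 of the most abundant tag of late lactation, and the miR-145 group as every tag that contained nt 2 to 17 of the mature 5p strand. The sequence of that strand was recognised from general knowledge among the abundant tags of the late library, after values had been seen, and was not matched to a reference. The same holds for the opposite strands, miR-143-5p and miR-145-3p, and the name of miR-143-3p comes from the rule for its group. The rule found 1464 tags for miR-143-3p and 279 for miR-145-5p, together 1743 of the 659118 distinct tags of both libraries. The opposite strands added 33 tags for miR-143-5p and 101 for miR-145-3p. miR-143-3p was chosen by its read count in late lactation, the highest of all tags, so its rank and level are given as a description.

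The tissue came from Laoshan dairy goats of 4 years of age in the third lactation, sampled by surgery at 90 days (peak) and 210 days (late) postpartum. RNA from 5 goats per stage was combined and sequenced as 1 small RNA library, so no difference below has a replicate check and no test across goats was possible. Whether the same goats gave both pools is not clear from the sources used here. The clean reads numbered 19044002 at peak and 7385833 at late lactation, so the peak library was 2.58 times deeper. Levels are reads per 1000000 clean reads (RPM), 1 read being 0.0525 RPM at peak and 0.135 RPM at late lactation. All intervals are 95% intervals of counting error only. Of the high-quality reads, 0.0494% at peak and 14.0% at late lactation had been removed as 5′ adaptor contaminants, and 0.759% and 4.14% as shorter than 18 nt. The cell types of the tissue were not checked here, since the marker lists hold miRNA names and no reference was used to match tags to them. In whole tissue, fewer cells of a type and less RNA per cell cannot be told apart.

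MicroRNAs are cut from hairpin precursors, and of the pair of strands released one is usually loaded into Argonaute while the other is degraded. The loaded strand finds messenger RNAs mainly through its seed, nt 2 to 8, so a shift of the 5′ end changes the seed, whereas 3′ ends often vary through trimming and through added A or U. In mammals miR-143 and miR-145 are processed from a shared primary transcript and are best known from smooth muscle, where they act on regulators of the contractile state such as KLF4 and ELK1. In the mammary gland miR-145 is known from the contractile myoepithelial cells around the alveoli. In the goat RefSeq annotation (assembly ARS1.2) MIR145 and MIR143 lie next to each other with 0 annotated genes between them, flanked by CSNK1A1 and IL17B. The deposited tags carry no coordinates. The authors mapped them to the sheep genome, and that mapping was not used here.

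The leading tag of each of the 4 strands in late lactation is shown first, because the groups were built on these sequences. They are written 5′ to 3′ with T for U as in the deposited data, and capitals mark the seed, nt 2 to 8 of the tag shown. For miR-145-3p the leading tag at peak began 2 nt before the tag shown, so it has another seed, given below.
miR-143-3p: tGAGATGAagcactgtagct
miR-143-5p: gGTGCAGTgctgcatctctgg
miR-145-5p: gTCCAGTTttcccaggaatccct
miR-145-3p: aTTCCTGGaaatactgttctt
The 4 seeds differ from each other. Tags outside the groups that also carried a seed at nt 2 to 8 held 0.887% of all reads with that seed at peak and 0.712% at late lactation for miR-143-3p, and 2.32% and 1.75% for miR-145-5p. For the opposite strands these shares were larger, 5.41% and 2.65% for miR-143-5p and 4.23% and 5.44% for miR-145-3p. The strands assigned to 1 hairpin also pair with each other. Against 9304 tags of 18 to 26 nt with at least 50 reads in a library, the duplex energy of the leading miR-143-3p tag with the leading peak tag of miR-143-5p was -26.1 kcal/mol, and 0 tags gave a lower one. For miR-145-5p with the leading peak tag of miR-145-3p it was -23.2 kcal/mol, and 8 tags gave a lower one.

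miR-143-3p was the most abundant of 189 groups of tags in both libraries. It took 3600013 reads at peak and 2446233 reads at late lactation, which is 18.9% and 33.1% of all clean reads. Its level was 189037 RPM at peak and 331206 RPM at late lactation, a log2 ratio of late over peak of 0.81 (0.807 to 0.811), or 1.75-fold. miR-145-5p was a far smaller group, with 3003 reads (158 RPM) at peak and 11282 reads (1528 RPM) at late lactation. Its log2 ratio was 3.28 (3.22 to 3.33), or 9.69-fold, and its rank among the groups was 158 at peak and 53 at late lactation. Both strands that head the cluster were therefore higher in the late library, miR-145-5p by the larger factor.

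Within each library the cluster mates can be compared without any scaling of depth. The ratio of miR-143-3p to miR-145-5p reads was 1199 (1157 to 1243) at peak and 217 (213 to 221) at late lactation. miR-143-3p outnumbered its cluster mate by more than 2 orders of magnitude at both stages, and by less in the late library. Reads of different sequences are ligated and amplified with different efficiency, so these ratios describe reads and not molecules.

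The opposite strands did not follow their partners in the same way. miR-143-5p had 458 reads (24.05 RPM) at peak and 408 reads (55.2 RPM) at late lactation, with a log2 ratio of 1.20 (1.004 to 1.40). The 3p strand of miR-145 had 2668 reads (140 RPM) at peak and 527 reads (71.4 RPM) at late lactation, a log2 ratio of -0.97 (-1.11 to -0.84). Of the 4 strands, miR-145-3p was the only one with a lower level in the late library.

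The strand balance of each hairpin follows from these counts. For miR-143 the 3p strand exceeded the 5p strand 7860-fold (7172 to 8633) at peak and 5996-fold (5441 to 6623) at late lactation. For miR-145 the 5p strand exceeded the 3p strand 1.13-fold (1.07 to 1.19) at peak and 21.4-fold (19.6 to 23.4) at late lactation. The 5p share of miR-145 reads was thus 53.0% (51.6 to 54.3) at peak and 95.5% (95.1 to 95.9) at late lactation. Near-equal strands of miR-145 at peak stood against a strong 5p excess at late lactation, and the intervals do not overlap. This comparison uses no scaling between libraries.

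**Figure D1:**
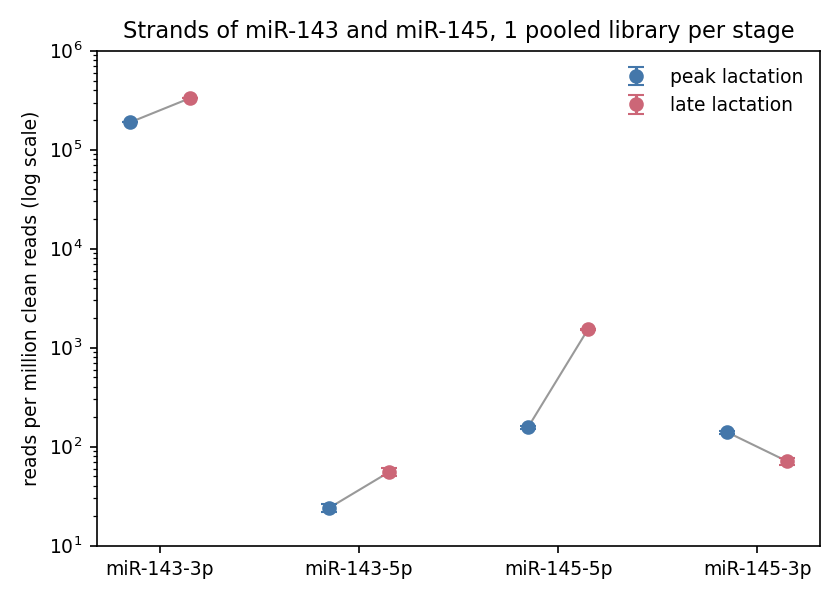
Levels of the 4 strands of miR-143 and miR-145 in RPM (log axis), with 1 point per library (blue, peak lactation; red, late lactation) and 95% counting intervals, mostly smaller than the points. Grey lines join the libraries; miR-143-3p is the highest in both, miR-145-5p goes from 158 to 1528 RPM, and miR-145-3p from 140 to 71.4 RPM.

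The other groups of tags give the background for these ratios. They were built in the same way around every tag of at least 100 RPM in a library. Some of them hold shortened or altered forms of miR-143-3p. None was matched to a reference, so they are not all known to be microRNAs. Of the 189 groups, 29.1% were at least 2-fold higher and 27.0% at least 2-fold lower in late lactation. miR-145-5p and miR-143-5p were past 2-fold higher, and miR-143-3p (1.75-fold higher) and miR-145-3p (1.96-fold higher at peak) were not past 2-fold. Against 78 other groups of at least 1000 RPM whose leading tag had 19 to 25 nt, the log2 ratio of miR-143-3p was exceeded by 25 and that of miR-145-5p by 2. The median of the 78 was -0.05, with a range from -2.75 to 4.37. The ratio of miR-143-3p was thus within the common range, and that of miR-145-5p near its upper end.

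**Figure D2:**
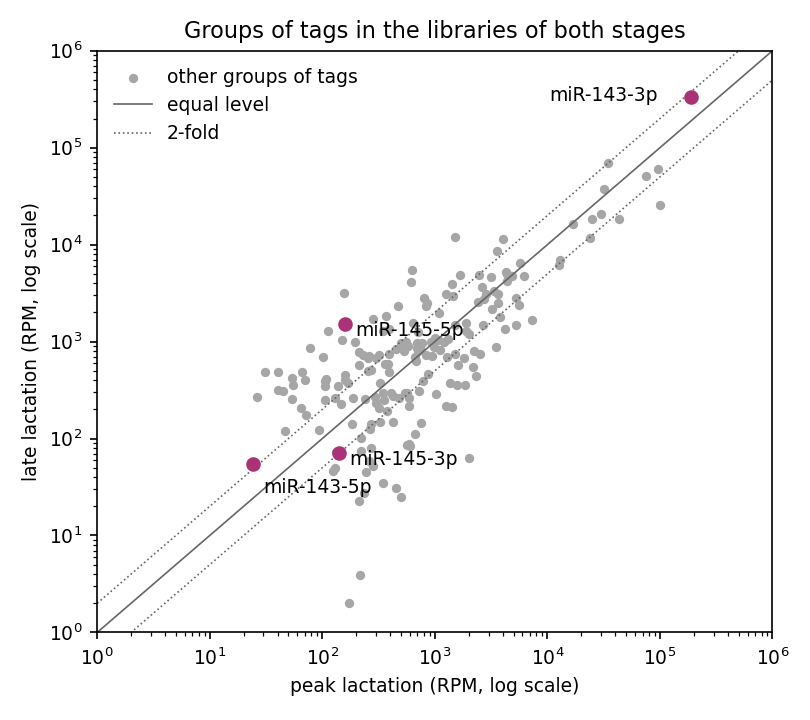
Level of each of 189 groups of tags at peak (x axis) and late lactation (y axis), in RPM on log axes, with the 4 strands of miR-143 and miR-145 in purple. The solid line marks equal levels and the dotted lines 2-fold; miR-143-3p sits at the upper right end within the dotted lines, and miR-145-5p above the upper dotted line.

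Of the groups of at least 1000 RPM in a library, the 3 with log2 ratios nearest to that of miR-143-3p are shown to identify them by sequence, with the seed in capitals. Likeness here is the gap between log2 ratios over the 2 libraries alone.
nearest: tTGGATGGtttagtgaggc
then: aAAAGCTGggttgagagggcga
next: tAACACTGtctggtaaagatggc
Their log2 ratios were 0.83, 0.85 and 0.97. The nearest had 711 RPM at peak and 1261 RPM at late lactation, and the last, whose sequence is that of miR-141 by general knowledge, had 2452 RPM and 4807 RPM. All 3 were far smaller groups than miR-143-3p at both stages.

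The forms of miR-143-3p differed mainly at the 3′ end. The forms that held at least 3% of its reads in a library are shown, with the letters after nt 20 in capitals.
20 nt form: tgagatgaagcactgtagct
22 nt form ending CT: tgagatgaagcactgtagctCT
22 nt form ending CG: tgagatgaagcactgtagctCG
23 nt form ending CTT: tgagatgaagcactgtagctCTT
The 20 nt form had 1576851 reads (82800 RPM, 43.8% of the group) at peak and 1505438 reads (203828 RPM, 61.5%) at late lactation, a log2 ratio of 1.30. The form ending CT had 55217 RPM at peak and 63209 RPM at late lactation, a log2 ratio of 0.20. The form ending CG had 16506 RPM and 24435 RPM, a log2 ratio of 0.57. The form ending CTT had 6401 RPM and 3842 RPM, a log2 ratio of -0.74. The shortest of the 4 thus differed most upwards, and the longest was lower in the late library. By rank among all tags, the 20 nt form went from 2 to 1, the CT form from 4 to 2, the CG form from 10 to 5 and the CTT form from 22 to 29. The late rank of the 20 nt form was fixed by the rule that chose it.

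The difference in total level therefore lay largely in 1 form, the tag that the rule had chosen for its read count in late lactation. Late minus peak, the group differed by 142170 RPM, of which the 20 nt form alone made 85.1% (121027 RPM). All tags of 22 nt together made 11.4%, and tags of 23 nt and longer together differed by -7481 RPM, being lower in late lactation.

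By length, tags of 20 nt held 45.3% of miR-143-3p reads at peak and 63.5% at late lactation. At 22 nt the shares were 39.2% and 27.3%, and at 23 nt 10.2% and 3.73%. Tags of 21 nt held little at both stages, 1.80% and 1.94%, so the length profile had a pair of separate maxima at 20 and 22 nt. The shares were 1.91% and 2.67% at 19 nt, 0.838% and 0.594% at 18 nt, and 0.776% and 0.281% at 24 nt. From 18 to 25 nt, which held nearly all reads, the log2 ratio was highest at 19 nt (1.29) and 20 nt (1.30), 0.92 at 21 nt, 0.29 at 22 nt, -0.64 at 23 nt, -0.65 at 24 nt and -0.89 at 25 nt. At 18 nt, the shortest length kept by the authors, it was 0.31.

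The mean length of miR-143-3p reads was 21.1 nt at peak and 20.7 nt at late lactation, a difference of -0.46 nt. Shorter reads in the late library were not particular to it. Of the 78 other groups with leading tags of 19 to 25 nt, 54 had a lower mean length at late lactation, with a median difference of -0.12 nt, and 19 were shortened by more than miR-143-3p. A main length of 20 nt at both stages was found in 1 of these 78 groups, and whether that group is a microRNA was not checked. The late library also had the larger share of reads removed as shorter than 18 nt (4.14% against 0.759%), and the part of this in the length profile was not tested.

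**Figure D3:**
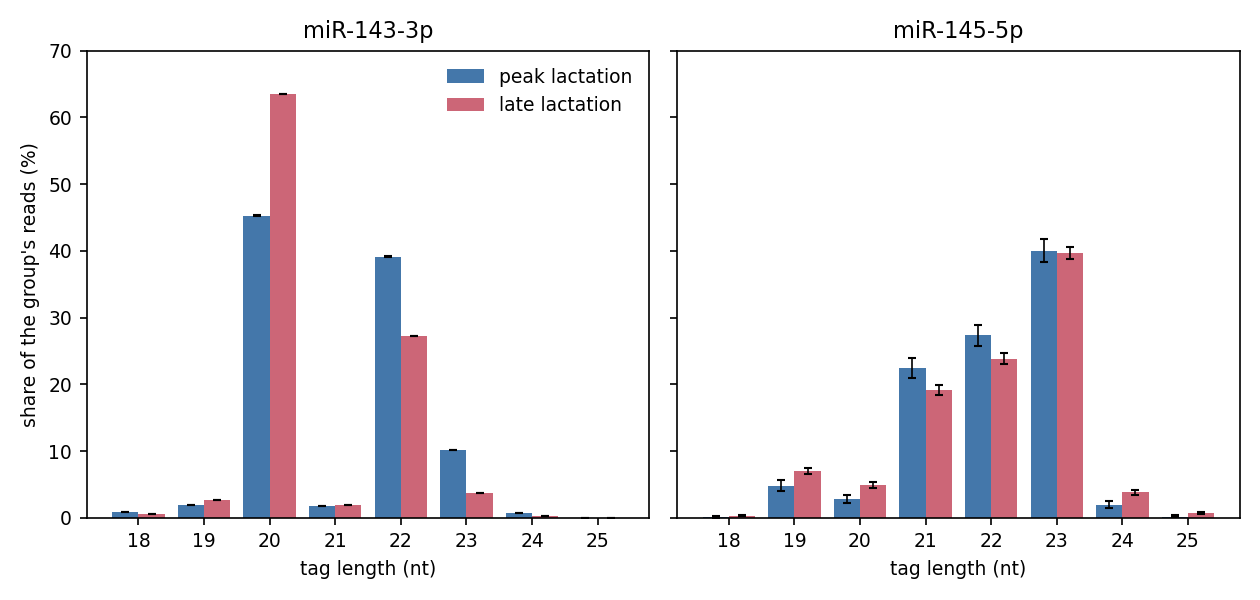
Share of the reads of miR-143-3p (left) and miR-145-5p (right) at each tag length from 18 to 25 nt, in percent of all reads of the group, at peak (blue) and late lactation (red), with 95% counting intervals. In miR-143-3p the 20 nt share is 45.3% at peak and 63.5% at late lactation and the 22 nt share 39.2% and 27.3%, while in miR-145-5p the 23 nt share is close to 40% at both stages.

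Longer 3′ ends of miR-143-3p are described by the letter that follows nt 21, which is C in both 22 nt forms. Reads that reached past nt 21 in this way made 49.6% of the group at peak and 30.9% at late lactation. Nt 22 was T in 70.3% of them at peak and 68.1% at late lactation, G in 27.7% and 29.97%, and A in 2.01% and 1.82%. The ratio of T to G was 2.54 and 2.27. As no hairpin sequence was used here, it is not known which of these letters are encoded in the genome.

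The letter at nt 23 differed more between the stages after G than after T. After G, it was T in 56.6% of reads at peak and 38.0% at late lactation, G in 22.1% and 36.4%, and A in 21.05% and 25.4%. After T, it was T in 67.3% and 65.3%, and A in 30.2% and 30.2%. The end form with CGT after nt 20, at 5260 RPM at peak and 2329 RPM at late lactation, had a log2 ratio of -1.18, the lowest of the end forms of at least 1000 RPM in a library. Short ends pointed the other way, with log2 ratios of 1.76 for reads that ended at nt 21 (990 RPM and 3354 RPM) and 1.48 for reads that ended at nt 19 (2506 RPM and 6969 RPM).

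The 5′ end of miR-143-3p was nearly fixed. Reads that began at nt 1 of the leading tag made 99.5% of the group at both stages, and reads that began 1 nt upstream 0.383% at both. A start at nt 2 was found in 0.110% of reads at peak and 0.0672% at late lactation. Because the group requires nt 2 to 17, reads that begin further inside are left out of it.

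Among those left out, reads that begin at nt 4 stood out and were looked at after the values were seen. The most abundant of these tags is shown with its nt 2 to 8 in capitals, which are another seed than that of miR-143-3p.
start at nt 4: gATGAAGCactgtagctct
Tags with this start had 16971 reads (891 RPM) at peak and 73666 reads (9974 RPM) at late lactation, a log2 ratio of 3.48 (3.46 to 3.51). Set against the size of the group, they came to 0.471% at peak and 3.01% at late lactation. The tag shown had 532 RPM at peak and 6139 RPM at late lactation. Starts at nt 5 (67.3 RPM and 1029 RPM) and nt 6 (173 RPM and 1043 RPM) were also higher in the late library, while starts at nt 2 (207 RPM and 222 RPM) hardly differed. A start at nt 4 was more frequent at late lactation in 60 of the 78 other groups as well. The medians were 0.0192% at peak and 0.0940% at late lactation, and 16 of the groups exceeded the late share of miR-143-3p. These groups were not matched to a reference. They include the group built on the tag shown (1508 RPM at peak and 11892 RPM at late lactation). The shares of 5′ adaptor contaminants and of short reads differed between the libraries in the same direction, and their part in these starts was not tested.

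In miR-145-5p the share of the main length was close at both stages, while the shares of several other lengths differed. The forms with the most reads are shown with the letters after nt 20 in capitals, as they differ only in where they end.
23 nt form: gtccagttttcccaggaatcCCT
22 nt form: gtccagttttcccaggaatcCC
21 nt form: gtccagttttcccaggaatcC
19 nt form: gtccagttttcccaggaat
The 23 nt form had 1121 reads (58.9 RPM) at peak and 3969 reads (537 RPM) at late lactation, a log2 ratio of 3.19 (3.09 to 3.29). The 22 nt form had 41.1 RPM and 301 RPM, a log2 ratio of 2.87 (2.76 to 2.99). The 21 nt form had 34.6 RPM and 247 RPM, a log2 ratio of 2.84 (2.71 to 2.97). The 19 nt form had 5.46 RPM and 86.5 RPM, a log2 ratio of 3.99 (3.68 to 4.30). The 20 nt form, which ends 1 letter later, had 75 reads (2.50% of the group) and 444 reads (3.94%), a log2 ratio of 3.93 (3.58 to 4.30). Every one of these 5 forms was more than 7-fold higher in the late library.

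By length, tags of 23 nt held 40.0% of miR-145-5p reads at peak and 39.7% at late lactation, those of 22 nt 27.3% and 23.9%, and those of 21 nt 22.4% and 19.1%. Less frequent were 20 nt (2.80% and 4.92%), 19 nt (4.83% and 7.02%) and 24 nt (1.93% and 3.81%). The 23 nt share differed by less than its interval. The 19, 20 and 24 nt shares were higher and the 21 and 22 nt shares lower at late lactation, with intervals that do not overlap. The mean length was 22.1 nt at peak and 22.02 nt at late lactation, a difference of -0.07 nt, and 46 of 78 other groups were shortened by more.

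**Figure D4:**
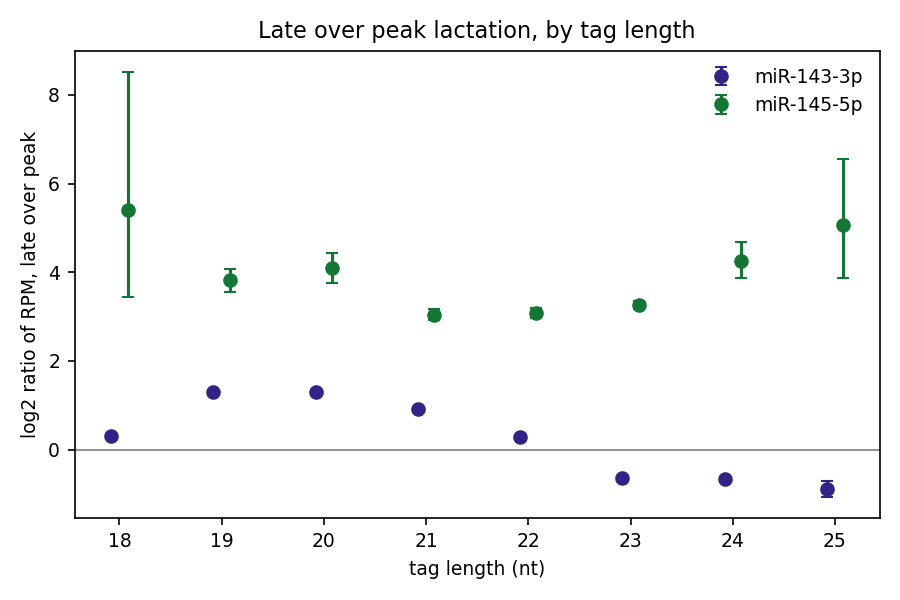
The log2 ratio of RPM, late over peak lactation, for tags of each length from 18 to 25 nt of miR-143-3p (blue) and miR-145-5p (green), with 95% counting intervals and a line at 0. miR-143-3p runs from 1.30 at 20 nt to -0.89 at 25 nt, and every length of miR-145-5p lies at 3.04 or above.

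The 3′ ends of miR-145-5p differed in added A. Letters that follow the point where a tag departs from the 23 nt form were counted as added, which does not show whether the genome encodes them. Reads with only A added made 3.13% (2.54 to 3.82) of the group at peak and 10.8% (10.2 to 11.4) at late lactation. Reads with only T added made 2.00% and 1.87%, and reads without an added letter 91.3% and 80.9%. Added T was thus level while added A was more frequent at late lactation.

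The higher share of A was seen at several ends. The tag that ends at nt 20 was followed by 1 A in 3 of 78 reads at peak (3.85%, 0.800 to 10.8) and in 31.6% (28.0 to 35.3) at late lactation. At nt 21 the share was 3.24% (2.04 to 4.86) and 13.7% (12.2 to 15.2), at nt 22 3.69% (2.51 to 5.23) and 11.4% (10.2 to 12.7), and at nt 23 0.267% (0.0551 to 0.778) and 2.96% (2.46 to 3.52). At nt 19 the shares were 3.70% and 6.03% with overlapping intervals (1.02 to 9.21 and 4.36 to 8.09). These shares compare tags that begin at nt 1 with and without the letter within 1 library.

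Added A was not more frequent at late lactation in miR-143-3p, taking nt 1 to 21 of its 22 nt forms as the reference. Reads with only A added made 3.51% at peak and 3.24% at late lactation, reads with only T added 33.0% and 20.5%, and reads without an added letter 46.4% and 65.2%. Reads that stopped at nt 21 were set against reads that stopped 1 nt later with a final A. The A held 60.8% of this pair at peak and 34.5% at late lactation, and 5.17% and 2.90% of the same pair at nt 22 of the CT form. Of the ends at nt 18 to 22, the share of A was higher at late lactation at nt 18 alone (32.7% and 42.6%). Counted against the leading tag, the share with only A in the 78 other groups had a median of 2.88% at peak and 4.18% at late lactation and was higher at late lactation in 50. The late share of miR-145-5p counted in this way among reads that begin at nt 1, 11.2%, was exceeded by 13 of them.

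Upstream starts were also more frequent in miR-145-5p at late lactation. Reads that began at nt 1 made 99.4% of the group at peak and 96.8% at late lactation, and those that began 1 nt upstream 0.200% (6 reads) and 2.19% (247 reads). The leading tag with this start, shown with its nt 2 to 8 in capitals, had 0 reads at peak and 54 reads (7.31 RPM) at late lactation.
1 nt upstream: aGTCCAGTtttcccaggaatccct
As a count of 0 at peak allows up to 3 reads (0.158 RPM), its late level was 46.4 times this limit. That factor leaves out the counting error of the 54 reads, and the tag led its start through late reads alone. The extra base shifts the seed by 1 letter. As no hairpin sequence was used here, it is not known whether the genome encodes this base. The 5′ adaptor contaminants differed between the libraries as given above, and their part in upstream starts was not tested. In all, 210 tags of miR-145-5p had no read at peak, and they held 584 reads or 5.18% of the group at late lactation. Reads at peak were found for 46 of its 256 late tags, and over all late tags for 66859 of 259250.

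miR-145-3p differed in its 5′ start. The leading tags of the 3 main starts are shown with nt 2 to 8 in capitals, because each start gives another seed.
start at nt 1: aTTCCTGGaaatactgttctt
start 1 nt upstream: gATTCCTGgaaatactgttctt
start 2 nt upstream: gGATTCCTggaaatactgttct
The start at nt 1 made 55.1% (53.2 to 57.0) of the reads at peak and 75.9% (72.0 to 79.5) at late lactation. The start 1 nt upstream made 14.6% (13.3 to 16.02) and 8.92% (6.63 to 11.7), and the start 2 nt upstream 29.0% (27.3 to 30.7) and 13.1% (10.3 to 16.3). All 3 shares differed between the stages beyond their intervals, and the tag with the most reads at peak was the one that begins 2 nt upstream (35.2 RPM at peak, 6.91 RPM at late lactation).

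The lower level of miR-145-3p in the late library was therefore uneven over its starts. Reads from nt 1 had 77.2 RPM at peak and 54.2 RPM at late lactation, a log2 ratio of -0.51 (-0.68 to -0.35). Reads from 1 nt upstream had 20.5 RPM and 6.36 RPM, a log2 ratio of -1.69 (-2.16 to -1.25). Reads from 2 nt upstream had 40.6 RPM and 9.34 RPM, a log2 ratio of -2.12 (-2.50 to -1.76). Among reads from nt 1, the tag shown had 27.4 RPM at peak and 22.2 RPM at late lactation. The tag without its last T had 26.9 RPM and 16.9 RPM (19.2% and 23.7% of the strand), and the tag with A in place of that T 7.82 RPM and 3.79 RPM (5.58% and 5.31%). From 1 nt upstream, the tag shown had 8.77 RPM and 2.03 RPM, and that without its last T 7.88 RPM and 1.90 RPM (5.62% and 2.66%). Counted from the leading late tag of each strand, upstream starts were more frequent at late lactation in miR-145-5p and less frequent in miR-145-3p. These starts are not placed on a hairpin, and it is not known whether the genome encodes their extra bases.

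**Figure D5:**
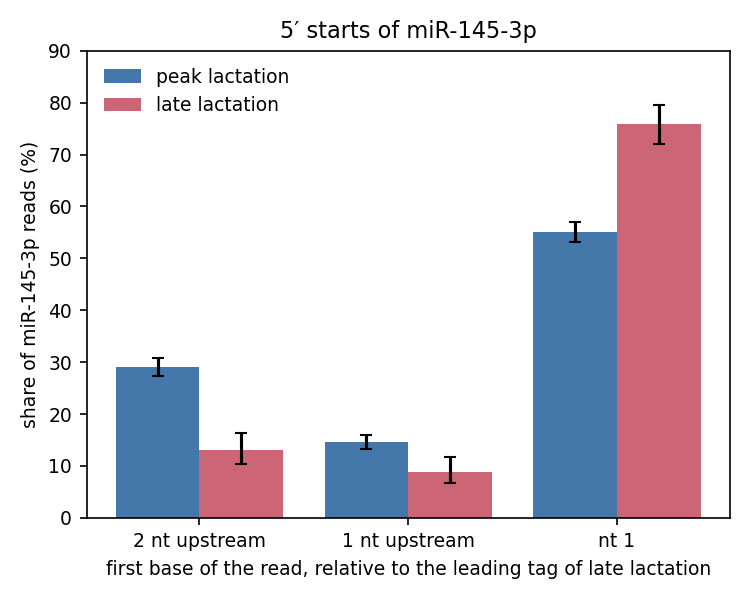
Share of miR-145-3p reads that begin at nt 1 of its leading late tag, 1 nt upstream or 2 nt upstream, in percent of all reads of the strand, at peak (blue) and late lactation (red), with 95% counting intervals. The start at nt 1 goes from 55.1% to 75.9%, and the start 2 nt upstream from 29.0% to 13.1%.

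miR-143-5p had few reads, and most were of 21 or 22 nt at both stages. Tags of 21 nt held 72.5% of its reads at peak and 67.4% at late lactation, and those of 22 nt 22.1% and 22.1%. The leading tag had 17.3 RPM at peak and 36.3 RPM at late lactation, a log2 ratio of 1.07 (0.83 to 1.31). The tag with 1 more A had 85 reads (18.6% of the strand) and 52 reads (12.7%), a log2 ratio of 0.66 (0.13 to 1.17). The tag with 1 more T had 13 reads (2.84%) and 34 reads (8.33%), a log2 ratio of 2.75 (1.79 to 3.80).

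Each tag was also set against a 2-fold difference, with a level of at least 1 RPM in a library as the filter. Over all 26175 tags that passed, 30.7% were at least 2-fold higher and 40.1% at least 2-fold lower in late lactation. The median of their log2 ratios was -0.44. The split depends on the scaling, with 41.6% higher and 32.9% lower when totals leave out the 10 most abundant tags of either library. Of the 1464 tags of miR-143-3p, 270 passed, of which 69 were higher, 52 lower and 149 neither, with a median of 0.17. Of the 279 tags of miR-145-5p, 41 passed, all of them at late lactation and 10 also at peak, and 41 were higher. As most passed through the late library alone, that count describes the filter as well as the tags. Of the 14 tags of miR-145-3p that passed, 0 were higher and 8 lower, and of the 4 of miR-143-5p 3 were higher and 0 lower. Within miR-143-3p, 17 of the 30 tags of 20 nt that passed were higher and 3 lower, while of the 19 of 25 nt 2 were higher and 11 lower.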

How the data were processed

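Small RNA of 18 to 30 nt was taken from a gel, ligated to adaptors, amplified and sequenced on an Illumina 1G Genome Analyzer. Quality filtering, trimming of the 3′ adaptor and removal of empty, 5′ adaptor, poly(A) and under 18 nt reads were done by the authors, who deposited a raw count for every distinct tag. Their tools were not given in the sources used here. Tags reached 44 nt and were unnamed. The authors' mapping, annotation and target prediction, and the qRT-PCR, were not used here.

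Counts were joined by sequence and divided by clean reads. Tags were grouped by a shared stretch, nt 2 to 17 of a leading tag. Intervals are exact (Poisson for counts, Clopper-Pearson for shares and for ratios of counts) and cover counting error only, since PCR copies are not independent molecules. A count of 0 was read as up to 3 reads, and in the 2-fold rule it was set to 0.01 RPM. No test was run, as each stage has 1 library. The members and lists were chosen with earlier results of these data known, and the names of miR-145 and of both opposite strands rest on recognition of the sequence. The naming rule took tags with at least 3% of their group in a library, the leading tag of each seed and the 3 groups nearest in log2 ratio. Leading tags of seeds that made under 1% of their group are left out, except 1 of miR-145-5p. A check of cell type markers was planned and not run. As no hairpin was used, letters were compared with the leading forms. The grouping and the 2-fold rule were tested on simulated data. Alternatives were other totals, TMM factors (edgeR 4.0.16), median-ratio factors (DESeq2 1.42.0), other matches and other filters. Duplex energies came from RNAduplex 2.7.2, and calculations from Python 3.11.15, pandas 2.3.3, scipy 1.17.1 and R 4.3.3.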

Additional observations from a re-analysis of the deposited data

How the results depend on the processing

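With 1 pooled library per stage, no replicate was there to leave out. No paired analysis was possible because each group has 1 library. Limits at low levels are set by the late library, where a 0 allows 0.406 RPM. No strand changed direction under any alternative run. The 2-fold call did change for miR-143-3p, as given next, and for miR-145-3p, which was past 2-fold lower (-1.02) with tags of at least 2 reads. The alternative with tags that match a hairpin was not run, as no hairpin was used, and the match over nt 5 to 18 was chosen after seeing the data.

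The log2 ratio of miR-143-3p was 0.81 with totals of 18 to 30 nt, 0.89 without the 10 most abundant tags, 1.09 without its own reads in the totals, 0.81 with TMM factors, 0.78 with median-ratio factors, 0.81 with up to 1 substitution and 0.85 with the match over nt 5 to 18; without its own reads in the totals it passes 2-fold. Without the miR-143-3p reads in the totals, the log2 ratio was 1.48 for miR-143-5p, 3.55 for miR-145-5p and -0.70 for miR-145-3p. Without the 10 most abundant tags it was 3.36 for miR-145-5p. Tags that begin with nt 1 to 18 gave -0.51 for miR-145-3p, since upstream starts drop out. The log2 ratio of miR-143-3p to miR-145-5p at late lactation was 7.76, against 7.80 for tags that begin with nt 1 to 18 and 7.80 for the match over nt 5 to 18. The 20 nt share of miR-143-3p was 45.5% at peak and 63.8% at late lactation for tags that begin with nt 1 to 18, and 45.2% at peak with up to 1 substitution.

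The counts of tags past 2-fold moved most. For miR-143-3p, 130 were higher with totals that leave out the 10 most abundant tags and 123 with totals that leave out its own reads, against 69. The filter then passed more tags, 377 and 330 in place of 270, and over all tags 41.6% and 41.5% were higher in place of 30.7%. Without a filter 476 of the 1464 tags of miR-143-3p were higher (32.5%, against 33.5% of all tags) and 718 lower (49.0%, against 62.7%). These counts largely describe detection and depth, as 509 of the 1464 tags had reads in both libraries. Over all tags, 66859 of 659118 did, a smaller share. A missing count is set to 0.01 RPM, and a read is 0.0525 RPM at peak and 0.135 RPM at late lactation. Without a filter, a tag missing from either library is therefore always past 2-fold. At 10 RPM 95 of its tags passed, with 22 higher (23.2%, against 28.2% of all tags) and 12 lower (12.6%, against 38.2%). For miR-145-5p all 64 tags that passed were higher with totals that leave out the 10 most abundant tags (41.6% of all tags). At 10 RPM all 11 that passed were higher (28.2% of all tags). Without a filter 256 were higher (91.8%, against 33.5% of all tags) and 23 lower (8.24%, against 62.7%). Of its tags, 210 had no read at peak and 23 had none at late lactation, so detection alone fixed most of this split.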

Other observations

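Tags that differ from the 20 nt or the 22 nt form of miR-143-3p by 1 base were counted as a share of that form, with positions from 1 at its 5′ end and the base of the form first. The median over 48 possible substitutions at nt 2 to 17 of the 20 nt form was 0.0113% at peak and 0.0118% at late lactation, and over the 10 most abundant other tags 0.0131% and 0.0130%. The 97.5th percentile over those other tags was 0.265% and 0.393%, and it includes abundant tags that differ from each other by 1 base. The substitutions given next were chosen after their values were seen. In the 22 nt form C19T, which lies outside nt 2 to 17, reached 0.438% at peak and 0.487% at late lactation, and in the 20 nt form C11T reached 0.170% and 0.215%. Others differed between the stages, with C13A of the 20 nt form at 0.129% at peak and 0.0242% at late lactation, C11T of the 22 nt form at 0.261% and 0.0728%, and T1A of the 20 nt form at 0.0135% and 0.0682%. No base quality was used here, so read errors and bases of the RNA cannot be told apart.

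Reads over 30 nt that hold miR-143-3p were rare, with 204 at peak and 58 at late lactation, or 0.00567% and 0.00237% of the group. Of miR-145-5p, 11 and 13 reads were that long.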
